A study of Ovis aries with 2 samples.

Results

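In the stretch of the sheep Y-chromosome from within SHROOM2 onwards, 46 windows of 1 kb were highly methylated on both sequencing platforms, and 37 of them lay in a block of 146 kb at its centromeric end, 34 of these inside the gene SHROOM2. This stretch, called the arm here, was taken as chrY:8600001-25899000 of the assembly ARS-UI_Ramb_v3.0, which leaves out the part between the centromeric array and its first window, and was cut into 17299 windows of 1 kb. A window was counted as highly methylated where it held 8 to 29 CpG sites, the mean methylation level of those sites was at least 80% from PacBio HiFi reads, and it was at least 70% from Oxford Nanopore (ONT) reads. Of 10988 windows with 8 to 29 sites, 46 met both limits (0.419%). This number depends on the settings, as 194 windows met limits of 75% and 65%, and only 2 remained when ONT calls between the thresholds were kept in the denominator. Keeping those calls lowers the ONT levels while the limit stays at 70%, so that a lower count follows from the setting. The 10942 windows of 8 to 29 sites that did not meet both limits are called the other windows. Because the 46 windows were selected on their methylation level on both platforms, their levels are given as a description, and what was compared is what the choice did not set: their place along the arm, how they cluster, their CpG number within the range of 8 to 29, the genes they lie in, their read depth and the copies of their CpG pattern.

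Methylation was measured in lung tissue of 1 Churro × Friesian F1 sheep fetus at 100 days of gestation, once with PacBio HiFi and once with ONT reads. There was 1 library per platform, both from the same animal, so the only repeat measurement is the second platform and no value here has a biological replicate. PacBio levels are the percentages modelled by the authors for each CpG site, whereas ONT levels are methylated calls as a percentage of methylated and unmethylated calls with the strands added. Over the chromosome the median CpG site had 45 PacBio calls and 103 ONT calls, and intervals given for shares are exact 95% Clopper-Pearson intervals that cover counting error only.

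DNA methylation at CpG sites is laid down by DNA methyltransferases and is high over most of the genome of mammalian somatic tissue, including the bodies of genes, while CpG-rich gene starts are usually free of it. The male-specific region of the Y-chromosome holds X-degenerate genes, which are relics of the chromosome pair from which the X and the Y arose, and ampliconic genes, which occur in many copies and act mostly in the testis. SHROOM2 belongs to the Shroom family of actin-binding proteins that set the shape and tension of epithelial cells, and it has a counterpart on the X-chromosome.

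The arm is named here for the ampliconic gene families found on it, although 9221 of its 10988 windows of 8 to 29 sites overlapped no annotated gene. Genes of the 6 ampliconic families HSFY, PRAME, RBMY, TSPY, ZNF280A and ZNF280B covered 1232 of these windows (11.2%), and none of the 46 highly methylated windows overlapped one. SHROOM2, which holds most of the 46, belongs to none of these families and lies near the edge of the X-degenerate region as the study describes it. The windows are therefore called by their level and by SHROOM2 rather than as ampliconic.

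On PacBio the 46 windows lay between 80.4 and 92.4%, with a median of 84.4%. On ONT they lay between 70.2 and 81.9%, with a median of 74.7%. The other windows had medians of 56.8% and 47.7%. All 46 were higher on PacBio than on ONT, by 3.26 to 17.1 percentage points. The median difference was 10.7 points in the 46 windows and 8.65 points in the other windows. PacBio alone put 96 windows at or above its limit and ONT alone 75, so that 50 windows met the PacBio limit only and 29 the ONT limit only.

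The highest mean of both platforms was found in chrY:8666001-8667000, with 92.4% on PacBio and 81.9% on ONT over 13 CpG sites. It was followed by chrY:8602001-8603000, with 92.0% and 80.1% over 10 sites. The window chrY:8628001-8629000 had 91.6% and 79.1% over 21 sites. All of these windows, and the next in order, lay within SHROOM2. The window chrY:8674001-8675000 had 91.1% and 77.7% over 20 sites, and chrY:8603001-8604000 had 91.4% and 77.4% over 10 sites.

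Several windows lay close to the limits. Just inside them were chrY:14791001-14792000, with 83.6% on PacBio and 70.2% on ONT, chrY:25844001-25845000, with 80.4% and 70.7%, and chrY:8686001-8687000, with 83.4% and 70.5%. Just outside were chrY:15233001-15234000, with 83.6% and 69.96%, chrY:8741001-8742000, with 85.9% and 69.8%, and chrY:13615001-13616000, with 79.8% and 70.4%. The windows just inside and just outside thus differed by less than 1 percentage point on the platform that decided.

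**Figure D1:**
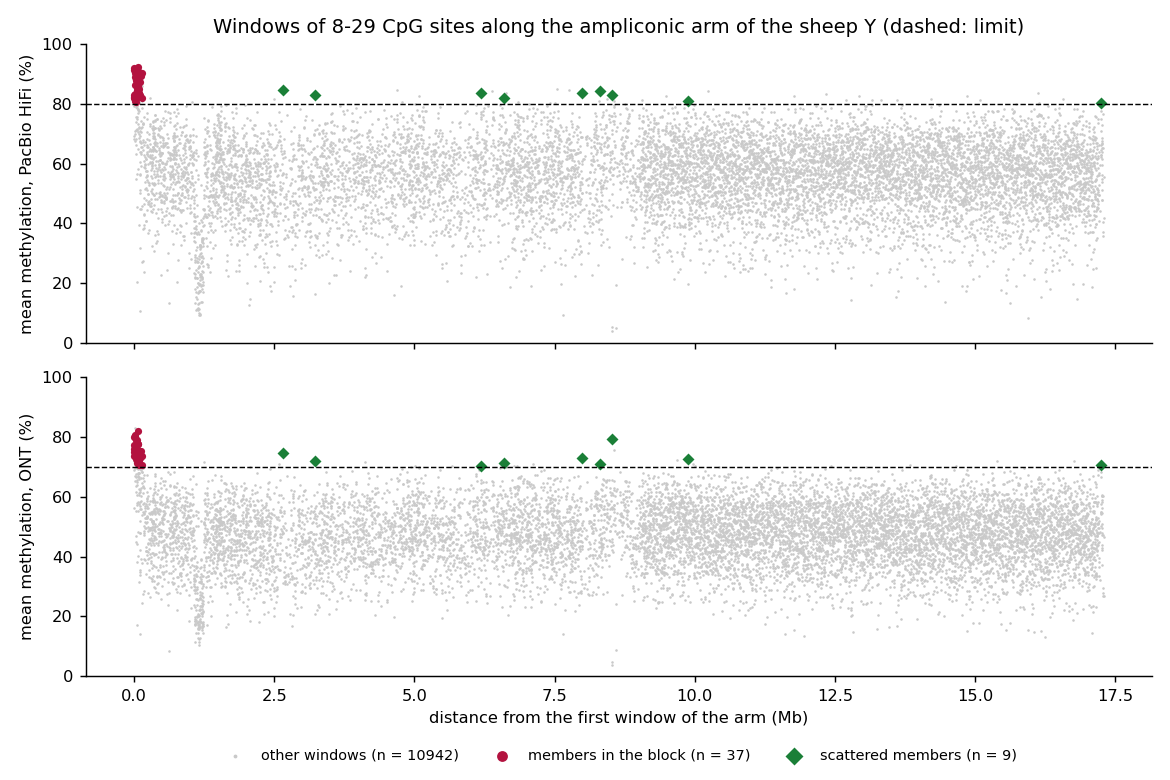
Mean methylation of each 1-kb window of 8 to 29 CpG sites (vertical axes, percent) on PacBio HiFi (top) and ONT (bottom), against the distance from the first window of the arm (Mb), with dashed lines at the limits of 80% and 70%. The 37 highly methylated windows of the block stand together at the left end, and the 9 scattered ones stand singly above a cloud of 10942 other windows whose medians are 56.8% and 47.7%.

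Most highly methylated windows lay at the start of the arm. The arm was divided into 4 parts of equal length. The first part held 39 of the 46 windows among 2369 windows of 8 to 29 sites (1.65%, interval 1.17 to 2.24), the second 5 among 1989 (0.251%), the third 1 among 3241 (0.0309%) and the fourth 1 among 3389 (0.0295%). The first part thus contained 84.8% of the highly methylated windows and 21.3% of the other windows. With limits of 75% and 65% it contained 42.3% of the windows chosen, and with PacBio alone 61.5%. This imbalance came from the block, since 37 of the 39 lay within the first Mb and the last of those began 147 kb into the arm. The share fell within the block as well, with 19 of 39 windows in the first 50 kb of the arm, 14 of 45 in the next and 4 of 32 in the third.

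The block, chrY:8602001-8748000, made up 0.844% of the length of the arm and 1.04% of its windows of 8 to 29 sites, and it contained 80.4% of the highly methylated windows. Of the 114 windows of 8 to 29 sites in the block, 37 met both limits (32.5%, interval 24.0 to 41.9), against 9 of 10874 in the rest of the arm (0.0828%, interval 0.0379 to 0.157). The block was drawn from the first to the last of its highly methylated windows, so that this contrast is a description. The next highly methylated window after the block was 2507 kb away. Of the 77 other windows in the block, 16 met the PacBio limit only, 9 the ONT limit only and 52 neither. The block was therefore not methylated evenly, and windows between its members reached down to 10.5% on PacBio and 13.96% on ONT. Most of its other windows were higher, with medians of 70.9% and 62.8%. The other windows outside the block had medians of 56.7% and 47.6%.

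The gene SHROOM2 (LOC132657142) is annotated on the minus strand at chrY:8574919-8715993, so that its 3′ end lies before the arm and its start inside it. Among 98 windows of 8 to 29 sites in its part of the arm, 34 were highly methylated (34.7%), with PacBio levels between 80.7 and 92.4% and ONT levels between 70.5 and 81.9%. The gene's windows before the arm, which the choice could not include, met the same limits in 8 of 20 cases, so that the first edge of the block was set by where the arm was taken to begin. The annotation used here gives the ends of a gene only, so that exons and introns could not be told apart.

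The methylation of SHROOM2 fell towards its start. Its last highly methylated window ended 11993 bp from the annotated start. In successive steps of 10 kb from chrY:8690001-8700000 to the step that contains the start, the PacBio medians of windows of 8 to 29 sites were 80.3%, 67.3% and 44.9%, and the ONT medians were 66.6%, 56.9% and 35.3%. Since these levels chose the windows, the fall is a description. The last window of 8 to 29 sites before the start, chrY:8714001-8715000, had 10.5% and 13.96%. The start itself lay in a window of 90 CpG sites, chrY:8715001-8716000, with 4.39% on PacBio and 1.64% on ONT. The next window, with 82 sites, had 4.15% and 1.77%. The highly methylated windows were thus part of the body of a gene whose CpG-rich start was almost free of methylation in the same libraries.

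Beyond the start of SHROOM2, methylation rose again over a short distance. The window chrY:8721001-8722000, centred 5.51 kb past the start and inside the lncRNA gene LOC121818179 (chrY:8717200-8727463), had 89.2% on PacBio and 75.4% on ONT over 13 sites. The remaining windows of the block, chrY:8746001-8747000 with 81.8% and 70.8% and chrY:8747001-8748000 with 90.2% and 73.8%, lay inside the lncRNA gene LOC132659063 (chrY:8738973-8752713). Both lncRNA genes are annotated on the plus strand, and no function is given for them. From the end of the second lncRNA gene to the first TSPY pseudogene, chrY:8752714-8878672, 0 of 70 windows met both limits, which allows a share of up to 4.29%, and the medians were 57.98% and 52.8%.

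Read depth moved with the block. The median ONT depth of the highly methylated windows was 137.5 calls per site against 90 in the other windows, a ratio of 1.53, and the median PacBio depth was 51.5 against 40, a ratio of 1.29. The ONT ratio was 1.04 with limits of 75% and 65% and 1.17 with either platform alone. Inside the block the medians were 144.5 ONT and 57 PacBio calls for its highly methylated windows and 138.5 and 57 for its other windows. The raised depth began in the 10 kb from chrY:8570001-8580000, shortly before the arm. In block windows where neither platform exceeded 1.5 times its median over the arm, 12 of 35 met both limits (34.3%), and in those where either did, 25 of 79 (31.6%). In windows of 8 to 29 sites, the medians were 64 PacBio and 170 ONT calls in the pseudoautosomal region. They were 38 and 94 in the male-specific region before the centromeric array. The files use ARS-UI_Ramb_v3.0, and the paper says that its Y-chromosomes joined the current reference assemblies. For the alignment of these reads it names only a reference assembly, without saying whether that held the X. SHROOM2 has a counterpart on the X-chromosome. Whether reads of that counterpart are among the calls over SHROOM2, and so enter its levels and depth, was not tested. The 3 windows in the lncRNA genes had 33 to 35 PacBio and 97.5 to 106 ONT calls. The 9 scattered windows had 41 PacBio and 90.5 ONT calls at the median.

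**Figure D2:**
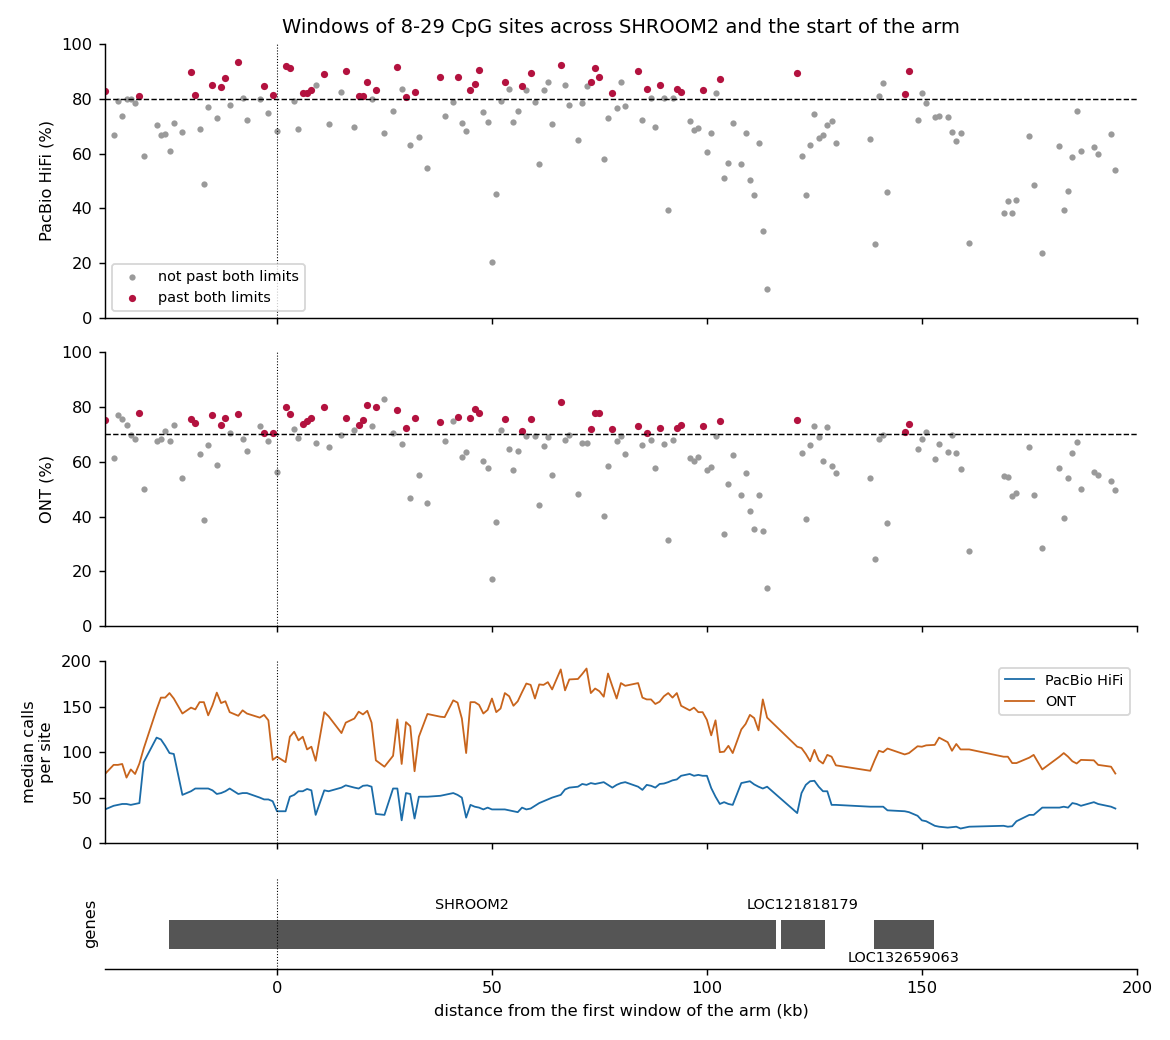
Windows of 8 to 29 CpG sites from 40 kb before to 200 kb after the first window of the arm (dotted line), with their mean methylation on PacBio HiFi and ONT (percent, dashed lines at the limits), their median calls per CpG site on each platform, and bars for annotated genes. Red points met both limits, and those left of the dotted line lie before the arm and are not among the 46. Those in the arm run through the body of SHROOM2 and stop 12 kb before its start, where methylation falls to 10.5% and 13.96%, and 3 more lie in the lncRNA genes, 2 of them touching.

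Highly methylated windows touched each other more often than the other windows touched them. A touching window that was itself highly methylated was found for 18 of 46 (39.1%, interval 25.1 to 54.6) and for 47 of the 10942 other windows (0.430%, interval 0.316 to 0.571). Within the block the shares were 18 of 37 (48.6%, interval 31.9 to 65.6) for highly methylated windows and 36 of 77 (46.8%, interval 35.3 to 58.5) for other windows. These shares lay close together, and the difference between them was not tested. The block was formed from chosen windows that lie close together and so holds all 18, and the 0 of 9 scattered windows that touched another, which allows a share of up to 33.3%, follows from that grouping. With ONT calls between the thresholds kept, the difference between highly methylated and other windows was -0.0091 percentage points over 2 windows.

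The 46 windows formed 35 runs, of which 28 were single windows, 3 were pairs and 4 were runs of 3 windows. All runs of 3 lay in SHROOM2. The run chrY:8645001-8648000 held 67 CpG sites and averaged 86.4% on PacBio and 77.7% on ONT. Within it, the PacBio levels of the successive windows were 83.3%, 85.5% and 90.4%, and the ONT levels were 75.9%, 79.1% and 78.0%. The run chrY:8673001-8676000 held 57 sites at 88.3% and 75.9%, chrY:8606001-8609000 held 60 at 82.4% and 74.9%, and chrY:8619001-8622000 held 30 at 82.7% and 76.5%. The only pair outside SHROOM2 was that in LOC132659063.

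The surroundings of block and scattered windows are given as a description, since the block is made of chosen windows that lie close together and surround each other. Around the 37 block windows, methylation stayed high, and at 10 kb on either side the means were 71.9% ± 21.8 (SD between windows) and 73.2% ± 16.7 on PacBio. Around the 9 scattered windows it fell within 1 kb, to 62.6% ± 12.9 on one side and 62.3% ± 10.4 on the other on PacBio, and to 54.8% ± 11.4 and 52.9% ± 10.8 on ONT. The touching windows were not all low, as those of chrY:11254001-11255000, chrY:16582001-16583000 and chrY:25844001-25845000 reached 86.3%, 78.0% and 79.3% on PacBio. At 2 kb the PacBio means were 53.6% ± 9.97 and 53.2% ± 7.79, where flanking windows of 3 or more sites were counted. Over the 5 windows on each side, the PacBio means around single scattered windows ran from 47.2 to 63.8% and the ONT means from 40.2 to 54.0%.

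**Figure D3:**
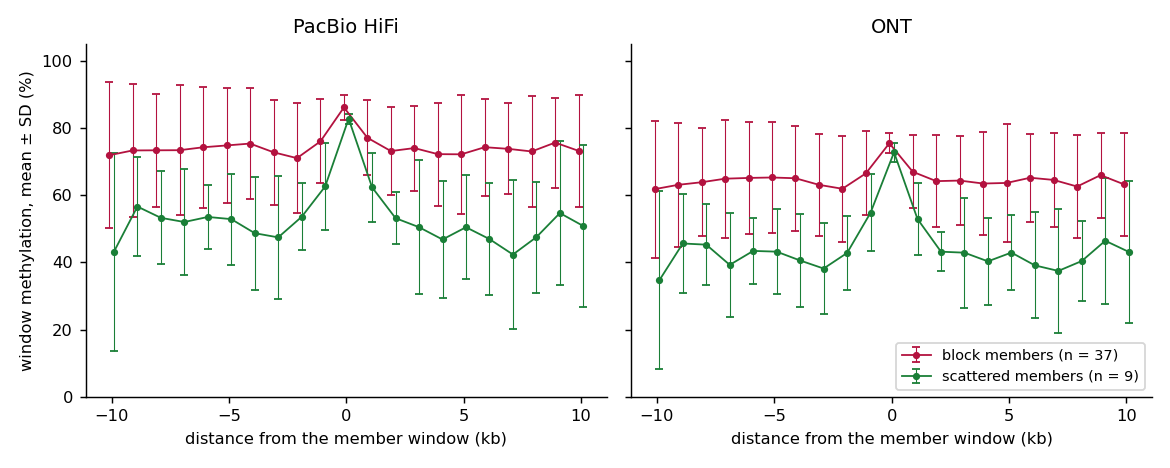
Mean methylation ± SD between windows (percent) at distances of 10 kb either side of a highly methylated window, for the 37 windows of the block and the 9 scattered windows, on PacBio HiFi (left) and ONT (right). The value at 0 is the chosen window. The block stays near 73% and 64%, whereas around the scattered windows the mean falls to 62.6% and 62.3% at 1 kb on PacBio, although single neighbours reach 86.3%.

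CpG number was higher in the highly methylated windows. Their median was 18 sites (range 8 to 29) against 12 in the other windows, and 69.6% of them held 15 or more sites against 32.3%, a difference of 37.3 percentage points. It was 23.8 points with limits of 85% and 75%, and -32.5 points with ONT calls between the thresholds kept, where only 2 windows remained. The share of windows that were highly methylated was 8 of 3668 with 8 to 10 sites (0.218%), 6 of 3755 with 11 to 14 (0.160%), 13 of 2369 with 15 to 19 (0.549%) and 19 of 1196 with 20 to 29 (1.59%, interval 0.959 to 2.47). The median distance between neighbouring sites in a window was 33.75 bp for highly methylated and 47 bp for other windows, and it was 36 bp for the other windows of the block.

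The CpG number was also looked at inside and outside the block apart, and the difference between these parts was not tested. In the block, the classes from fewest to most sites held 8 of 22, 5 of 28, 10 of 34 and 14 of 30 highly methylated windows, with intervals that overlap. Its highly methylated windows had a median of 18 sites and its other windows one of 15. Outside the block the same classes held 0 of 3646, 1 of 3727, 3 of 2335 and 5 of 1166. The scattered windows thus had 20 sites at the median, with 8 of 9 at 15 or more, and no window of 8 to 10 sites outside the block met both limits, which allows a share of up to 0.0823%. Over all windows of 8 to 29 sites outside the block, CpG number and level were correlated, with Spearman's rho of 0.45 on PacBio and 0.48 on ONT over 10874 windows, whereas in the 114 windows of the block rho was 0.04 and 0.02. These are descriptions across windows that share libraries, and the same reads can span neighbouring windows.

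**Figure D4:**
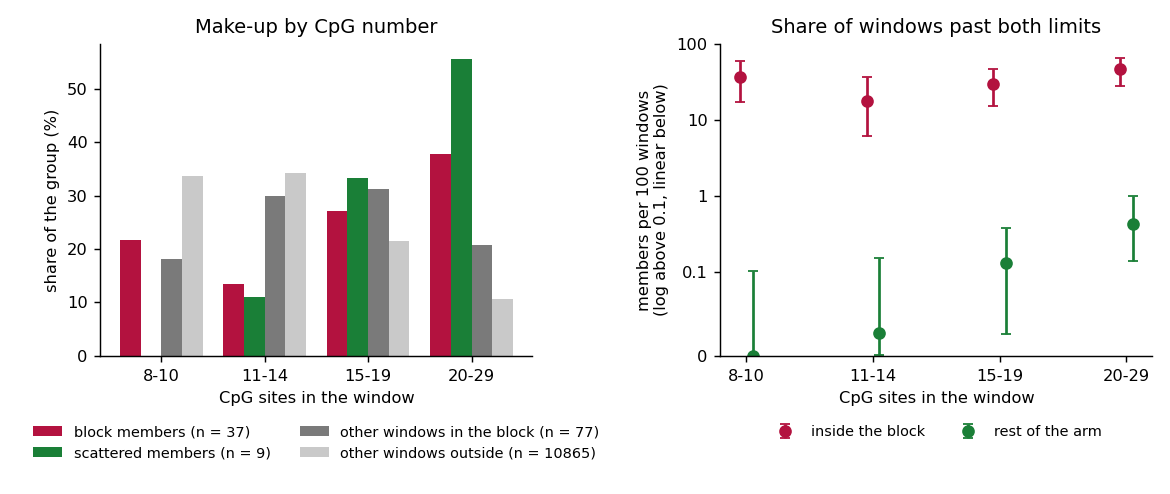
Left, the share of each group of windows (percent) in 4 classes of CpG number, for block, scattered and other windows. Right, the share of windows meeting both limits in each class (percent, log scale above 0.1 and linear below), inside the block and in the rest of the arm, with exact 95% intervals for counting error. Outside the block the share runs from 0 of 3646 windows with 8 to 10 sites to 5 of 1166 with 20 to 29 sites. Inside it the same classes hold 8 of 22 and 14 of 30, and the 4 intervals overlap.

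The 9 scattered windows lay outside every annotated gene, at gaps of 220 to 7369 kb from the highly methylated window before them. The first, chrY:11254001-11255000, had 84.6% (PacBio) and 74.6% (ONT) over 20 sites. Of these sites, 18 lay within 300 bp at its left end, and the touching window on that side had 49 sites, too many for the choice, and 86.3% and 76.2%. The window was thus the edge of a longer stretch that was rich in CpG sites and highly methylated. The window chrY:16582001-16583000, with 83.7% and 72.9% over 22 sites, had the same form on the opposite side, with 19 sites within 300 bp and a right neighbour of 45 sites at 78.0% and 73.8%.

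The other 7 scattered windows touched no window with 30 or more sites. The window chrY:17133001-17134000 had the highest ONT level of the 9, with 82.8% on PacBio and 79.4% on ONT over 11 sites, 10 of which lay within 300 bp. Its touching windows had 48.3% and 47.4% on PacBio. SRY, the gene that sets male development, was its nearest gene, at 65770 bp. The windows across SRY were among the least methylated of the arm, with 5.03% on PacBio and 8.67% on ONT in chrY:17199001-17200000 and 19.2% and 24.1% in the next. The gene and the highly methylated window nearest to it lay at opposite ends of the range of levels.

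The window chrY:11819001-11820000 had 83.0% and 72.1% over 26 sites, 21 of them within 300 bp, and its nearest gene was a PLCXD1 pseudogene at 39817 bp. The window chrY:14791001-14792000, at 83.6% and 70.2% over 28 sites, lay 6978 bp from a protein-coding copy of PRAME, a family expressed in germ cells. The window chrY:15206001-15207000 had 81.8% and 71.5% over 15 sites and lay 10529 bp from a pseudogene of HSFY, a Y-linked family related to heat shock factors.

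The window chrY:16913001-16914000, with 84.2% and 70.8% over 16 sites, lay 18877 bp from a BCORL1 pseudogene. The window chrY:18475001-18476000, with 80.8% and 72.6% over 27 sites, lay 16654 bp from a protein-coding copy of ZNF280B, a zinc finger family. The last, chrY:25844001-25845000, had 80.4% and 70.7% over 19 sites and lay 5647 bp from an EI24 pseudogene, the shortest distance to a gene among the 9. The scattered windows had a different nearest gene in every case, and none of those genes was overlapped by a highly methylated window.

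Sites of very low methylation were few. Of the 830 CpG sites in the 46 windows, 3 were under 20% on both platforms, against 10228 of 145180 sites in the other windows, as follows from the choice. The 3 sites lay in different scattered windows, which held 184 of the 830 sites. The site at 11254900 had 10.1% on PacBio and 8.79% on ONT, that at 15206654 had 8.5% and 7.5%, and that at 16582092 had 13.9% and 11.8%. Without its lowest site, chrY:15206001-15207000 would have had 87.0% and 76.0%. In the block, 8 of 646 sites were under 50% on both platforms, against 12 of 184 in the scattered windows.

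**Figure D5:**
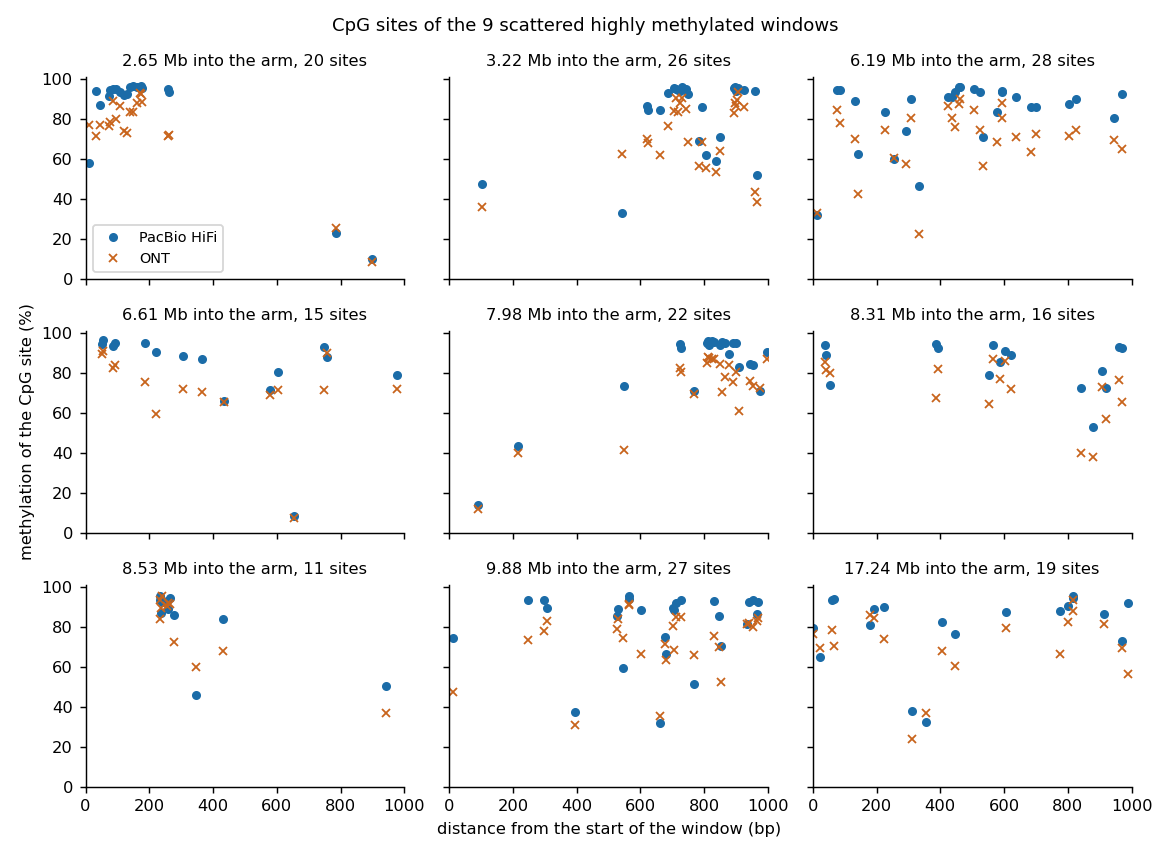
Methylation of each CpG site (percent) on PacBio HiFi (circles) and ONT (crosses) against its distance from the start of the window (bp), in the 9 scattered highly methylated windows, ordered along the arm. Sites bunch into a dense group in the windows at 2.65, 3.22, 7.98 and 8.53 Mb, while they are spread over the others, and the 3 sites under 20% on both platforms lie in the windows at 2.65, 6.61 and 7.98 Mb.

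The sites within the highly methylated windows were not all high. Of their 830 sites, 571 were at or above 80% on PacBio and 70% on ONT (68.8%), and 20 were under 50% on both platforms (2.41%). The lowest PacBio site of a window was at 49.95% at the median over the 46 windows. The windows were chosen on the mean of these sites, so these values only describe how evenly it was reached. On ONT the strands gave 75.6% on the plus and 75.5% on the minus strand when all calls were pooled. ONT calls that fell between the thresholds for a methylated and an unmethylated base, which enter no percentage, were 15.9% of calls in the 46 windows and 13.1% in the others.

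The groups differed in the genes they overlapped. A highly methylated window overlapped an annotated gene in 37 of 46 cases (80.4%, interval 66.1 to 90.6) and an other window in 15.8%. For the 46 windows the gene was protein-coding in 34 cases (73.9%) and a lncRNA in 3 (6.52%), against 1.62% and 0.292% of the other windows. Pseudogenes were overlapped by 0 of 46, which allows a share of up to 6.52%, and by 13.9% of the other windows. The contrast rested on the block, where 96.1% of the other windows lay in a gene as well, 81.8% in a protein-coding and 14.3% in a lncRNA gene. Outside it, 0 of 9 scattered windows did, which allows a share of up to 33.3%, beside 15.2% of the others, and this difference was not tested. At limits of 75% and 65% the difference over the arm was 27.7 percentage points in place of 64.6.

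The ampliconic families were not among the highly methylated windows. Of their 1232 windows of 8 to 29 sites 0 met both limits, which allows a share of up to 0.244%. That limit lies above the 0.0828% of the arm outside the block, and no difference is read from this. The medians of the 1232 windows were 56.5% on PacBio and 47.4% on ONT. TSPY, a testis-specific family and the largest, with 5 protein-coding genes and 70 pseudogenes in the arm, covered 988 of these windows at medians of 57.1% and 48.1%. ZNF280B, with 27 protein-coding genes and 15 pseudogenes, covered 98 windows at 54.9% and 46.0%. The 64 windows of ZNF280A, all pseudogenes and the family with the lowest PacBio median of the 6, had 51.9% and 43.1%. The 45 windows of HSFY had 54.6% and 46.3%, and the 33 of PRAME had 58.5% and 45.5%. The 4 windows of RBMY, a family of RNA-binding proteins of germ cells, had 52.8% and 38.4%. ZMYND8 pseudogenes, which are not among these families, covered 324 windows, of which 0 met both limits, which allows a share of up to 0.926%. SHROOM2 was the only protein-coding gene of the arm that a highly methylated window overlapped.

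The block also lacked recurring CpG patterns. A copy was counted where 6 successive distances between CpG sites were found again, in either orientation, at least 2 kb away on the arm. Of the 46 windows, 3 had such a copy (6.52%, interval 1.37 to 17.9), against 67.8% of the other windows. In the block, 0 of 37 highly methylated and 0 of 77 other windows had one, which allows shares of up to 8.11% and 3.90%. Outside it 3 of 9 scattered windows did (33.3%, interval 7.49 to 70.1), an interval that holds the 68.3% of the other windows.

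The copies of 2 scattered windows were highly methylated as well. The windows chrY:11254001-11255000 and chrY:16582001-16583000 were inverted copies of each other over 7 sites, at which the PacBio levels were 94.1% and 92.4% and the ONT levels 80.7% and 76.3%. The first had 4 copies in all and the second 5. Each of their further copies lay in windows of 49 to 56 CpG sites, too many for the choice. All of these windows met both limits, with 80.6 to 89.6% on PacBio and 74.8 to 80.2% on ONT. Over the arm, 108 of 459 windows with 30 or more sites met both limits (23.5%), at medians of 77.3% and 67.9%. The further copy windows are few, and most of them are copies of both scattered windows. Whether they differ from other windows of that CpG number was not tested. The lists of both windows share 5 windows, these 2 included, and a further window, which starts at 10633001, shares sites with the second alone.

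The third, chrY:18475001-18476000, had copies in 144 windows, which all held 8 to 29 sites and began between 12018001 and 25788001. When windows that touch are joined, they make 109 places. None of these windows met both limits, and their medians were 70.1% on PacBio and 63.4% on ONT. Over the shared sites alone the levels were 80.1% and 73.9% in the window, with medians of 76.6% and 69.6% in the copy windows, of which 22 were past both limits over those sites. The highest copy window reached 79.3% on PacBio and another 72.4% on ONT. As the level chose the window and not its copies, no difference is read from this.

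The same limits were also applied to regions outside the arm, without the centromeric array. In windows of 8 to 29 sites, both limits were met by 1944 of 5277 in the pseudoautosomal region (36.8%, interval 35.5 to 38.2), by 153 of 341 in the male-specific region before that array (44.9%, interval 39.5 to 50.3) and by 79 of 228 between the array and the arm (34.6%, interval 28.5 to 41.2), beside 37 of 114 in the block (32.5%, interval 24.0 to 41.9). The differences between these regions were not tested, and the block, unlike the others, was drawn around windows that met the limits. Within the arm, windows with 30 or more sites met them in 108 of 459 cases (23.5%), and windows with fewer than 8 sites in 15 of 5833 (0.257%). In the block, 3 of 23 windows with 30 or more sites met them (13%, interval 2.78 to 33.6), at medians of 33.3% and 27.9%. These include the windows at the start of SHROOM2.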

How the data were processed

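CpG methylation of chromosome Y was measured once by PacBio HiFi and once by ONT in lung of 1 fetus, and each platform was 1 group of 1 sample. For PacBio, the authors estimated methylation with Primrose, aligned reads with pbmm2 and deposited a modelled percent per CpG site from pb-CpG-tools 2.3.2, with counts of reads and of estimated methylated and unmethylated reads. ONT bases were called by the authors with Dorado and aligned with Winnowmap, and they deposited modbam2bed counts per strand of methylated, unmethylated and between-threshold calls (thresholds of 20% and 80%), with a percent and a score for the share of valid calls. Reads of near-identical copies can be placed on the wrong copy by either aligner. Both files use ARS-UI_Ramb_v3.0.

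Strands of a site were added, and levels were averaged over sites in windows of 1 kb, with at least 5 valid calls per site, a minimum that 0 sites failed. Depth is the median number of valid calls per site. Members more than 100 kb apart were put in different clusters, which defined the block. Gene ends, types and identifiers came from RefSeq, and names and strands of all 241 genes of the chromosome were matched by start and end to the annotation given with the study. Windows were named by rank of the mean of both platforms, by the longest runs, by nearness to the limits and by gene, and all 9 scattered windows were described after their values were seen. For shares of 0, limits are those that 3 counts allow. No test was made, because windows of 1 animal are no replicates. Window selection and copy finding were tested on simulated data, with planted windows well away from the limits, which does not cover windows near a limit. The members, lists and comparisons were chosen with earlier results of these data known. Python 3.11.15, NumPy 2.4.6, pandas 2.3.3, SciPy 1.17.1 and matplotlib 3.10.9 were used.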

Additional observations from a re-analysis of the deposited data

How the results depend on the processing

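No paired analysis was possible because each platform has 1 library and no test was made. Of 103 alternatives over all results, 69 left a count, a ratio or the difference in ONT calls between the thresholds within 1.5 times its value, or a share within the counting interval, 30 moved it further and 4 reversed it. This bound is wide for the depth ratio, which was 1.04 with limits of 75% and 65% and 1.17 with either platform alone. The reversals came from keeping ONT calls between the thresholds, which left 2 windows, and from leaving out the block. Without the block none of the windows left touched another or lay in a gene, since the block holds all that do. The values below are the number of highly methylated windows (46) and the difference between highly methylated and other windows in percentage points for the share in the first part of the arm (63.5), touching a highly methylated window (38.7), with 15 or more CpG sites (37.3), in a gene (64.6) and with a CpG-spacing copy (-61.3). With ONT calls between the thresholds kept in the denominator only 2 windows remained, with 28.4 for place, -0.0091 for touching, -32.5 for CpG number and 33.9 for genes. That setting lowers the ONT levels under an unchanged limit, so that a lower count follows from it. Windows of 2 kb gave 21 windows, 79.1 for place and 78.6 for genes. Limits of 85% and 75% gave 16 windows, 78.6 for place and 84.0 for genes, and limits of 75% and 65% gave 194 windows, 21.1 and 27.7. PacBio alone gave 96 windows, 40.3 for place and 45.8 for genes, and ONT alone 75 windows and 48.1 for place. Without windows of outlying depth there were 21 windows, with 45.9 for place and 41.8 for genes. Pooling calls gave 54.3 for touching, a reach of 3 windows gave 66.5, and comparing within classes of CpG number gave -70.7 for copies. In parts 2, 3 and 4 of the arm the CpG difference was 63.9, 61.2 and 60.3. Leaving out the block, chosen after seeing the data, left 9 windows, with -0.101 for touching, 56.7 for CpG number, -15.2 for genes, -35.0 for copies and a depth ratio of 1.01 in place of 1.53. The block kept 37 windows when members were split at 50 or 500 kb, also chosen after seeing the data. Where fewer windows remained, the count itself limits the shares, and otherwise the cause was not tested. Depth limits single sites more than windows, and 1 animal leaves variation between animals unmeasured.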
